A study of Drosophila melanogaster with 13 samples.

Results

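DAFC-66D is the follicle cell amplicon on chromosome arm 3L that holds the chorion genes Cp15, Cp16, Cp18 and Cp19, which encode structural proteins of the eggshell. The peaks described here are those of the 6 egg chamber lists that overlap 3L from 8.6 to 8.9 Mb in Release 5 (dm3), and there were 493 of them among the 65511 peaks of these lists. The egg chambers came from OrR, a wild-type strain, and were of stage 10 or of stages 12 and 13 pooled, with 600 egg chambers per ChIP fixed in 2% formaldehyde. At each stage antibodies against SUUR and Cdc45 were used, with guinea pig IgG as the control and 1 input, and every group held 1 library, so no test between groups was possible. Whole egg chambers contain nurse cells and the oocyte beside the follicle cells, so the share of follicle cell DNA in a library is not known.

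During late oogenesis the follicle cells stop replicating their whole genome and fire origins only at a few loci, the chorion loci among them, again and again. Origin firing dominates up to stage 10, and the forks that have left the origins keep moving outward in later stages, which gives a gradient of copy number around the genes. Cdc45 is part of the helicase that travels with the fork. SUUR is a chromatin protein that hinders fork progression and is known for its part in underreplication of polytene chromosomes.

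In each of the 4 ChIP samples with SUUR or Cdc45 in the title, the deposited file and the run name in its header carry the other antibody. The libraries are called here by the file: "filed as Cdc45" means titled SUUR, and "filed as SUUR" means titled Cdc45. Any direction between the antibodies is reversed if the titles are right. At stage 10 the list filed as Cdc45 had 353742 tags after removal of duplicates, the list filed as SUUR 8265341 and IgG 3891175. At stages 12-13 they had 4824942, 6942374 and 2592149. The stage 10 library filed as Cdc45 was thus by far the shallowest, and values set side by side across libraries carry that difference in depth. None of the 3 salivary gland lists of the series had a peak in the window.

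The window held 153 peaks of the stage 10 list filed as Cdc45, 55 of the list filed as SUUR and 14 of IgG. At stages 12-13 it held 143, 120 and 8. Values given for a list are over all of its peaks, many of which lay off the main chromosome arms. On these arms, X included, lay 3449 of 5147 peaks filed as Cdc45, 6926 of 24764 filed as SUUR and 249 of 5551 of IgG at stage 10. At stages 12-13 it was 3183 of 9875, 4077 of 13241 and 1461 of 6933. The first and last members of the list filed as Cdc45 at stage 10 lay at 8628535 and 8883257, and the nearest peaks outside the window lay 24.6 kb before its start and 39.8 kb after its end. In the other 5 lists the nearest outside peak was at least 102.9 kb before the window and 172.2 kb after it. The members in these lists therefore formed a group of their own, set apart from the next peaks on the arm.

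Position along the locus was measured from 8.72 Mb, an approximate place for the chorion genes that was written from general knowledge and rounded to 0.01 Mb, since no Release 5 annotation was used here. In the Release 6 gene table the order along 3L is SrpRbeta, CG32022, CG6511, CG43965, Cp18, Cp15, Cp19, Cp16, Prm and CG13306. No Release 6 coordinate was carried over to the peaks. Cp18 lies beside the amplification control element of the locus, and the main origin lies between Cp18 and Cp15, as known from earlier genetic work.

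Peak width differed strongly between the stages. Stage 10 members filed as Cdc45 were 49 to 2526 bp long with a median of 98 bp, against a median of 49 bp over the whole list, and 5 of 153 reached 1 kb (3.27%, Wilson 95% interval 1.4 to 7.42%), against 0.0971% of the list. Those 5 were all of the peaks of 1 kb or more in that list. Members filed as SUUR at stage 10 were 36 to 394 bp long with a median of 66 bp, below the list's 74 bp, and none of the 55 reached 1 kb (upper Wilson limit 6.53%), against 0.331% of the list. Peaks at this stage were short pieces in both lists. In each of the 6 lists the shortest member was as long as the fragment length of its library. At stage 10 this was 49 bp filed as Cdc45 and 36 bp filed as SUUR. The list median of 49 bp filed as Cdc45 thus stood at that lower end.

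At stages 12-13 both lists held long peaks. Among members filed as Cdc45, 29 of 143 reached 1 kb (20.3%, 14.5 to 27.6%), against 0.446% of the list, and these 29 held 103.1 kb of the 130.5 kb covered. The longest, from 8703201 to 8719929, was 16729 bp and was the longest peak of its whole list. Among members filed as SUUR, 16 of 120 reached 1 kb (13.3%, 8.38 to 20.6%), against 0.551% of the list, and held 53.0 of 71.3 kb. The longest of these, 14196 bp from 8705734 to 8719929, ended at the same base and was again the longest of its list. IgG members had lengths of at most 192 bp at stage 10 and 119 bp at stages 12-13, and none of the 14 and 8 reached 1 kb, against 0.0901% and 0.0577% of their lists. Filed as Cdc45, depth differed with stage (353742 against 4824942 tags), so stage and depth cannot be told apart there. Filed as SUUR, depth (8265341 against 6942374 tags) and fragment length (36 against 58 bp) also differed with stage, and their part in the widths was not tested.

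**Figure D1:**
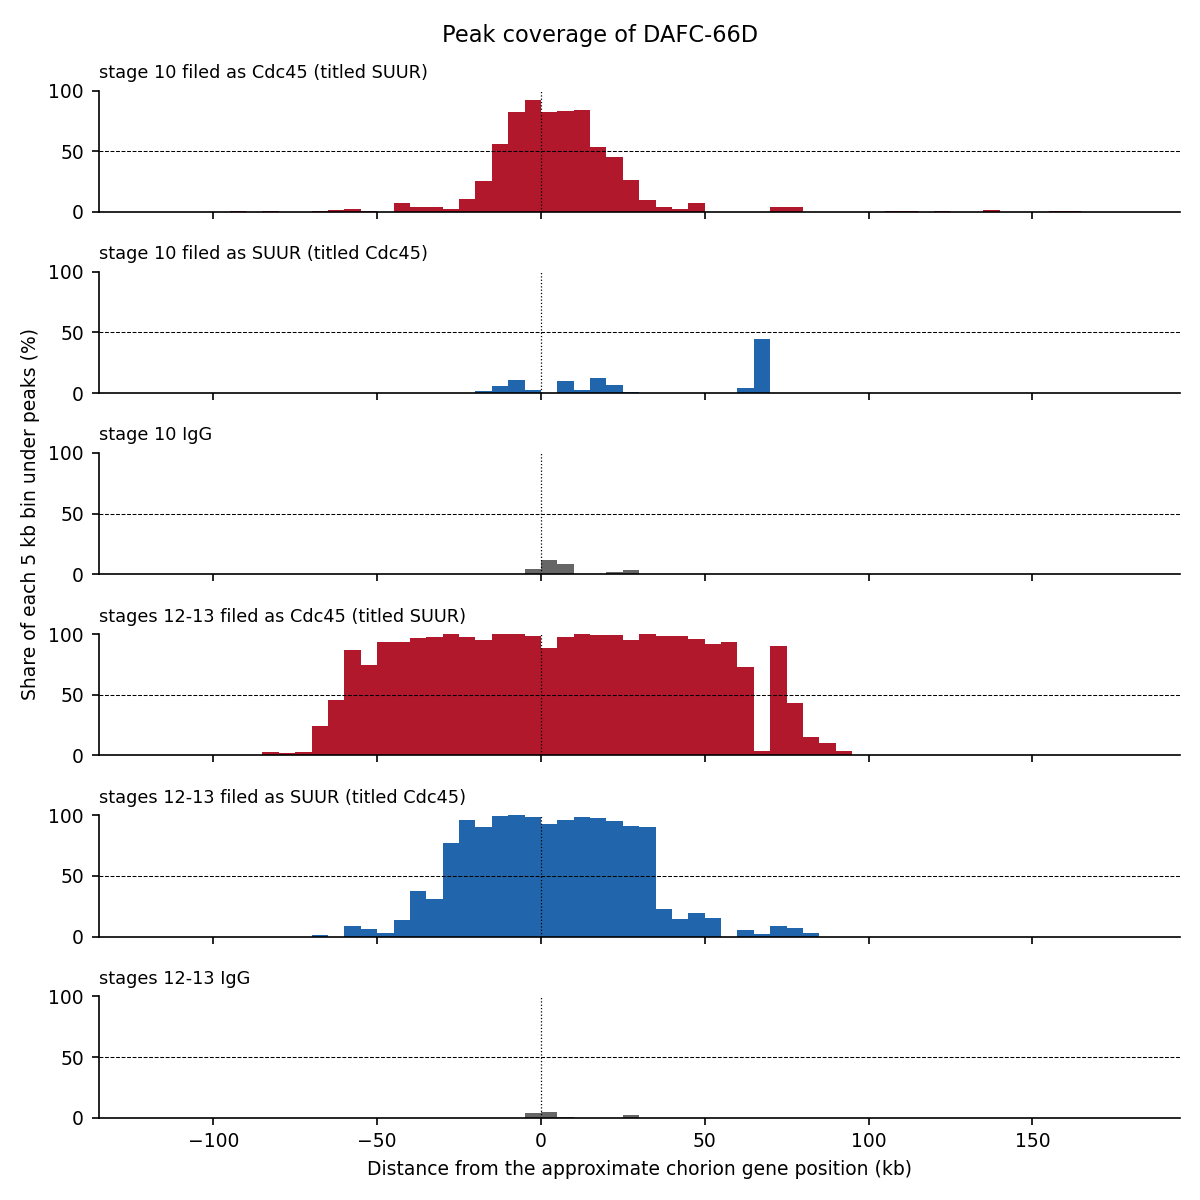
Share of each 5 kb bin that lies under peaks (y axis, percent) against distance from the approximate chorion gene position (x axis, kb) in the 6 egg chamber lists. Bars are bins of 1 library, the dashed line is 50% and the dotted line is the chorion gene position. The block filed as Cdc45 spans 35 kb of unbroken bins over 50% at stage 10 and 125 kb at stages 12-13, the block filed as SUUR spans 65 kb at stages 12-13, and IgG stays below 15% in every bin.

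About the reference at 8.72 Mb the wide blocks had similar lengths on both sides. At stages 12-13 the list filed as Cdc45 covered 60.7 kb on the low-coordinate side of the reference and 69.8 kb on the high side, a ratio of 1.15. The list filed as SUUR covered 33.2 and 38.1 kb, also a ratio of 1.15. The mean position of a covered base was 5.22 kb to the high side in the first and 3.15 kb in the second. This balance depends on the approximate reference. Moved 10 kb to the high side, it gave 70.0 kb low and 60.5 kb high filed as Cdc45 and 42.6 and 28.6 kb filed as SUUR, so the direction turned in both. Placed at the highest summit of each list, it gave 51.7 and 78.8 kb filed as Cdc45 and 23.0 and 48.3 kb filed as SUUR. With peaks over IgG left out, the list filed as SUUR had 19.0 kb low and 29.2 kb high of 8.72 Mb.

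The edges of the blocks were measured from the same reference. The unbroken run of 5 kb bins covered at least 50% filed as SUUR at stages 12-13 reached 30 kb to the low side and 35 kb to the high side. The run filed as Cdc45 reached 60 kb and 65 kb, and after 1 break a further bin brought the high side to 8.795 Mb. Of its covered bases, the outer 10% on each side began at -48.9 kb and at 58.8 kb from the reference, against -27.4 and 32.4 kb filed as SUUR. Single peaks reached farther, to 81.4 and 94.1 kb filed as Cdc45 and to 65.4 and 83.0 kb filed as SUUR.

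At stage 10 the side balance differed between the lists. The list filed as Cdc45 covered 14.7 kb on the low side and 20.6 kb on the high side, a ratio of 1.41, and its run of bins reached 15 and 20 kb. The run was centred on 8.7225 Mb, the same midpoint as that of the list filed as SUUR at stages 12-13. The stage 10 list filed as SUUR covered 1.09 and 4.10 kb, a ratio of 3.77, but 2.46 kb of the high side lay in 1 separate cluster about 65 to 69 kb away, described further on. With the reference moved 10 kb to the high side the stage 10 list filed as Cdc45 had 22.9 kb on the low side and 12.3 kb on the high side, so the direction of its imbalance depends on where the genes are placed.

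**Figure D2:**
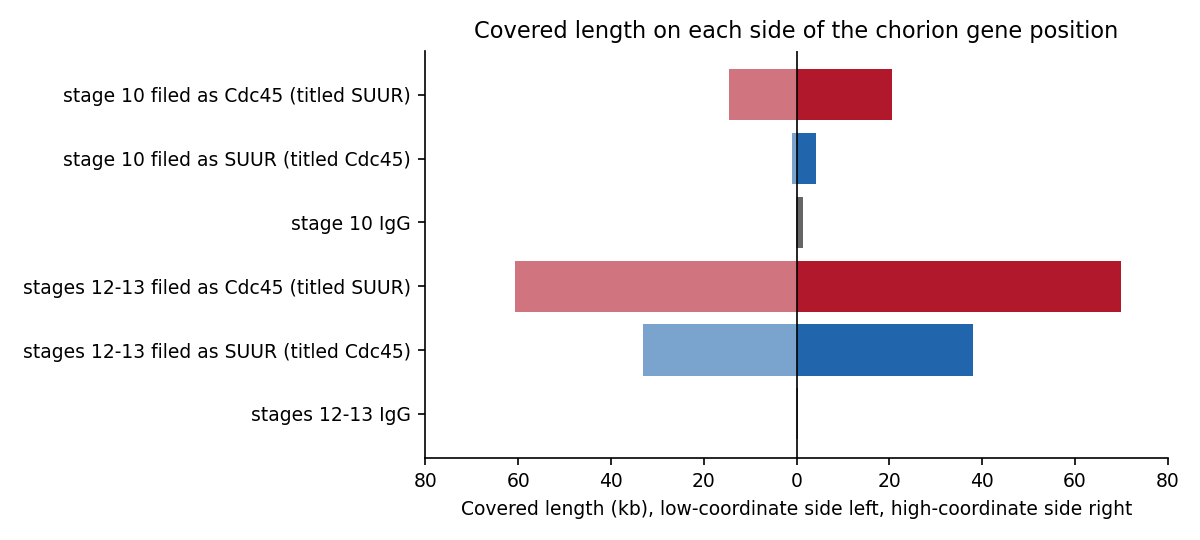
Covered length (x axis, kb) on the low-coordinate side (pale bars, to the left) and the high-coordinate side (full bars, to the right) of the approximate chorion gene position, for 1 library per row. At stages 12-13 the sides are 60.7 and 69.8 kb filed as Cdc45 and 33.2 and 38.1 kb filed as SUUR.

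The stage 10 block lay inside the later one. Of the 153 stage 10 members filed as Cdc45, 141 overlapped a peak of stages 12-13 filed as Cdc45 (92.2%, 86.8 to 95.5%), against 16.2% of the whole stage 10 list. By length, 34.3 of 35.3 kb was shared, which is 97.3% of the stage 10 coverage and 26.3% of the later coverage. Of the 55 members filed as SUUR, 41 overlapped the later list (74.5%, 61.7 to 84.2%), against 36.3% of the whole list, and the shared length of 2.82 kb was 54.5% and 3.96% of the 2 coverages. The later blocks covered nearly all of the core, so an overlap there was almost bound to occur. Neighbouring members are also not independent of each other. Seen from the later lists, 31 of 143 members filed as Cdc45 overlapped a stage 10 peak (21.7%, 15.7 to 29.1%), against 6.94% of the list. Filed as SUUR it was 11 of 120 (9.17%, 5.2 to 15.7%), against 67.4%, a share far below the list's, and 1 long peak can overlap many short ones. For IgG, 6 of 14 stage 10 members and 6 of 8 later members overlapped the other stage, against 39.7% and 31.3% of the lists. Coverage at stages 12-13 was 3.70 times that of stage 10 filed as Cdc45 and 13.7 times filed as SUUR, while IgG coverage was 1.54 and 0.584 kb. The value filed as SUUR moves with the stage 10 list: with a −log10 p of 5 or more the coverages were 2.95 and 67.8 kb, and with lists of equal length 0.448 and 66.2 kb.

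Summit pileup is the number of tags stacked at the highest point of a peak. In the ChIP lists of both stages its zone medians were higher within 30 kb of the reference than beyond 50 kb. The rise did not go on to the reference in every list: filed as Cdc45 at stages 12-13, pileup was lower just to its high side. The stage 10 members filed as Cdc45 had pileups of 2 to 19 with a median of 6, against a list median of 3. The highest, 19 tags, stood at 8718487 in the peak from 8717545 to 8719153, and the next, 18 tags, at 8726270. A further 6 summits had 16 tags each, from 8719399 to 8727837, so all 8 lay within 8 kb of the reference. Members filed as SUUR had 10 to 38 tags with a median of 22, against 13 over the list, and their highest summits, 38 and 37 tags, stood at 8716913 and 8716723. The third, 35 tags, stood at 8726173, within 100 bp of the second summit filed as Cdc45. IgG at stage 10 was highest within 5 kb of the reference, with 33 tags at 8722222 and 32 at 8724074.

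At stages 12-13 pileup stood at 85 tags filed as Cdc45, in the longest peak at 8710940, and at 106 tags filed as SUUR, at 8709764. No peak elsewhere on 3L was higher in either list, and 25 and 3 peaks elsewhere in the genome were. Pileups were not scaled by depth, since duplicate removal limits them in each library.

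Duplicate removal set a ceiling on these numbers. With 1 tag kept per position and strand, a fragment of length d can stack at most 2 × d tags, which gives 92 for the list filed as Cdc45 at stages 12-13 and 116 for the list filed as SUUR. No peak of any of the 6 lists exceeded its ceiling, and in 4 of them the highest peak in the genome stood exactly at it. At DAFC-66D the highest pileups at stages 12-13 were 92.4% and 91.4% of the ceiling. At stage 10 they were 19.4% filed as Cdc45 and 52.8% filed as SUUR. The pileup over the core at stages 12-13 is therefore compressed, and its part in the results over the core was not tested.

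Between the long peaks lay a short central stretch, 8719930 to 8725476, where pileup filed as Cdc45 was lower at stages 12-13. The stretch was picked after its values were seen. Filed as Cdc45, its 6 summits had pileups of 39 to 63 tags. The 19.9 kb before it held 2 summits, of 67 and 85 tags, and the 19.9 kb after it held 4, of 69 to 82 tags. Those flank summits are maxima of peaks of 1748 to 16729 bp, against 129 to 1245 bp in the stretch. The stretch was also cut at the ends of long peaks. Lower summits in the stretch were thus favoured by the choice, and no conclusion is drawn from the ranges. Filed as SUUR, its 4 summits had 70 to 92 tags, inside the flank ranges of 52 to 106 and 66 to 103. IgG had up to 26 tags in the stretch and 27 and 25 beside it. Filed as Cdc45 the highest summit of the stretch stood at 68.5% of the ceiling, against 92.4% and 89.1% in the flanks.

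At stage 10 the same stretch divided the lists. Filed as Cdc45 it was 80.5% covered by 8 peaks with 8 to 16 tags, against maxima of 19 and 18 in the flanks. Filed as SUUR it held no peak at all, although its flanks held 16 and 22, and the uncovered interval around it ran from 8716925 to 8726151. IgG had 6 peaks there with 24 to 33 tags. Local input background, worked back as described further on, was 6.53 to 8.44 times the genome level at the summits filed as Cdc45 in the stretch. At the flank members filed as SUUR it was 2.11 to 6.32 and 2.08 to 6.49 times. A peak needs more tags to pass the p-value limit where background is higher. The part of this in the absence filed as SUUR was not tested. The chorion genes are placed near this stretch by the approximate position, but whether they lie in it was not determined here.

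**Figure D3:**
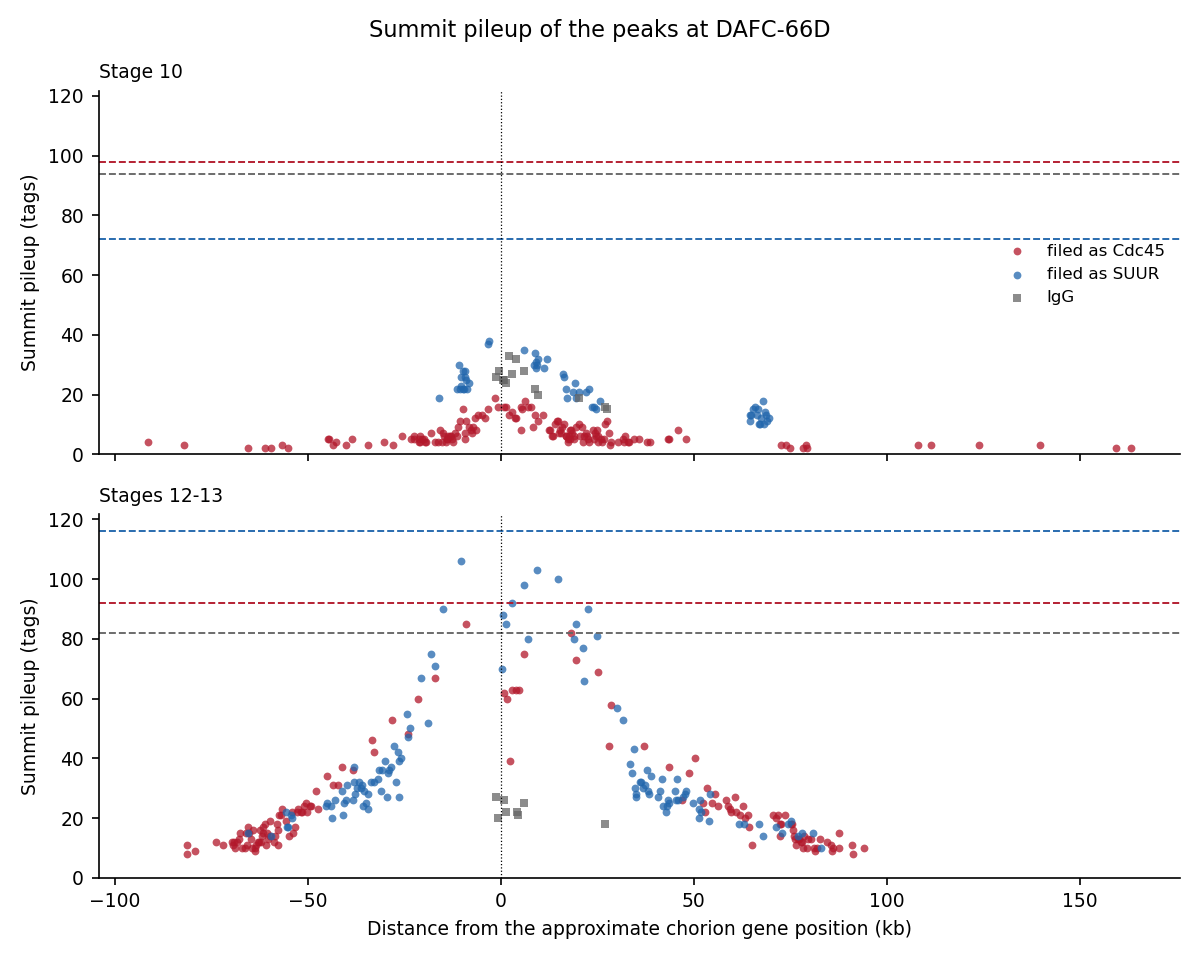
Summit pileup (y axis, tags) of each member peak against distance of its summit from the approximate chorion gene position (x axis, kb), at stage 10 (top) and stages 12-13 (bottom). Points are peaks, colours are libraries, and dashed lines are the ceiling of 2 × d tags for the library of the same colour. At stages 12-13 both ChIP lists go from 8 and 10 tags at the lowest to 85 and 106 tags, and just right of the reference the list filed as Cdc45 has summits of 39 to 63 tags.

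The authors' fold values also hold the input DNA, which carries the amplification itself. Fold was taken as the pileup plus 1 over the local input background plus 1, the default of MACS2, so that the background at each summit could be worked back. The headers do not state the added 1, and every input multiple rests on it. In all 6 lists the lowest value worked back in this way was also the commonest, held by 61.6% to 84.7% of peaks, and lay within 1.5% of the genome-wide expectation from tags, fragment length and genome size. Divided by that floor, the background at a summit gives the caller's local input background as a multiple of the genome level. It is not a count of input tags at the summit. The floor bounds it below, so a multiple of 1 can stand for input at or under the genome level. Summits of different lists that lay within 200 bp of each other gave ratios with medians of 0.963 to 1.02 in the 6 pairs of lists sharing an input. The extremes among single pairs of summits were 0.597 and 1.71. This use of the values was chosen after the lists were seen, and the input at each stage is 1 library.

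Local input background at DAFC-66D was raised over a narrow core at stage 10 and over a wider region at stages 12-13. The highest multiple at stage 10 was 8.44, at 8722137, and at stages 12-13 it was 11.4, at 8723026, both within about 3 kb of the reference. In the zone from 10 to 30 kb on the low side the median over summits filed as Cdc45 was 2.34 at stage 10 and 4.86 at stages 12-13, and on the high side 3.08 and 5.58. From 30 to 50 kb it was 1.29 and 3.32 on the low side and 1.77 and 3.12 on the high side. Input background was therefore higher at stages 12-13 in each of these 4 zones. The outermost summits with an input of at least 2 lay at -30.1 and 46.0 kb from the reference at stage 10, and at -64.3 and 75.2 kb at stages 12-13. Input also has a ceiling from duplicate removal, 12.2 to 12.4 times the floor, and the multiple of 11.4 stood near it. Summits sample the input only where peaks were called.

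**Figure D4:**
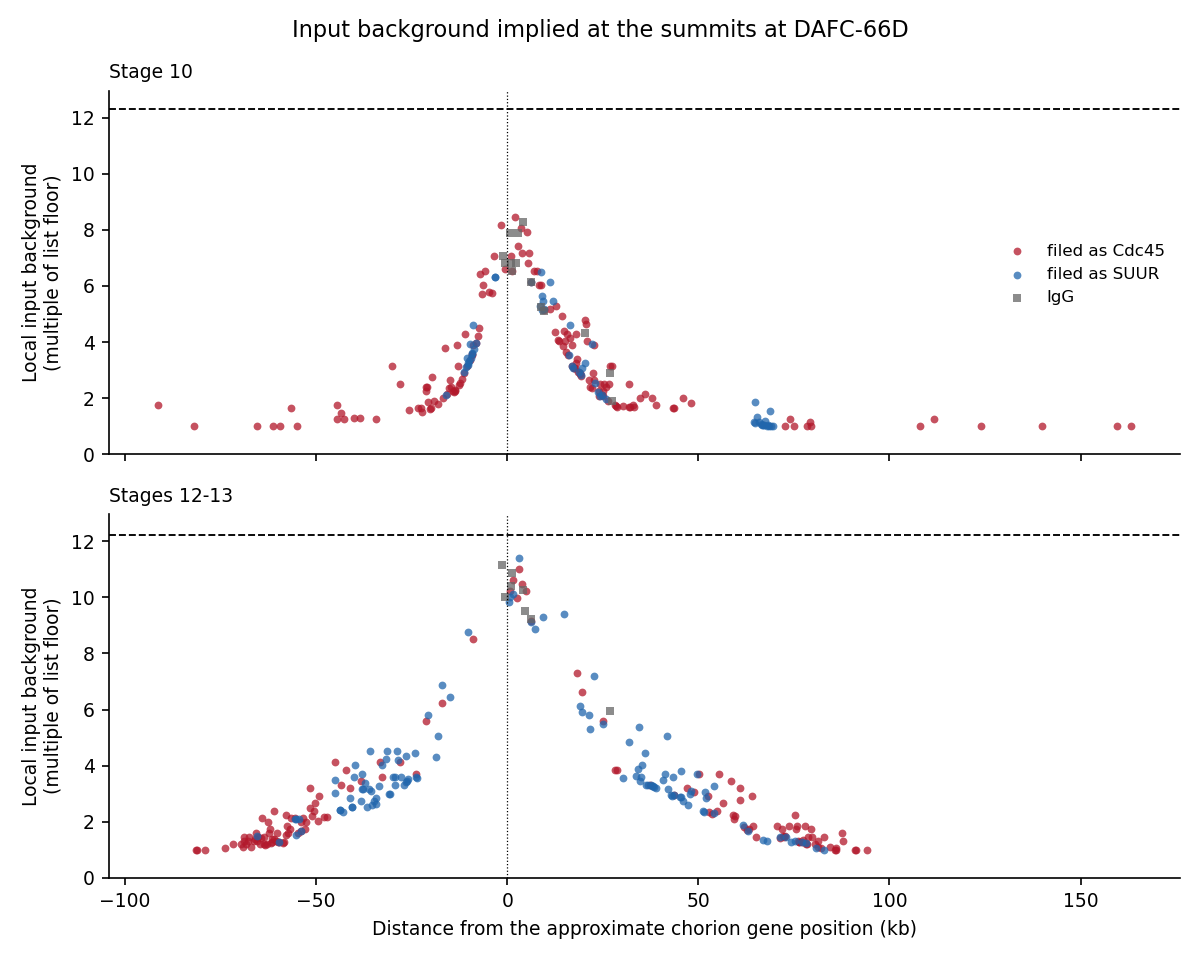
Local input background at each summit as a multiple of the commonest background of its list (y axis), worked back from the authors' pileup and fold, against distance from the approximate chorion gene position (x axis, kb). Points are member peaks, coloured by list, and the dashed line is the ceiling set by duplicate removal. The highest values are 8.44 at stage 10 and 11.4 at stages 12-13, and the profile is wider at stages 12-13 on both sides.

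Filed as Cdc45, fold as deposited was highest at the core at stage 10 and away from it at stages 12-13. Depth (353742 against 4824942 tags) and closeness to the pileup ceiling also differed between these lists, and their part was not tested. The stage 10 list had folds of 2.62 to 10.7 with a median of 4.84, against 3.49 over the list. Its zone medians were 7.08 and 7.43 within 10 kb on the low and high side, 4.81 and 5.08 from 10 to 30 kb, and 3.82 and 4.48 from 30 to 50 kb. The highest fold, 10.7, stood at 8710253 in the peak from 8709899 to 8710504, with 15 tags. Pileups were 2 to 8 tags beyond 30 kb, where the added 1 weighs most on the fold. The floor of this list was 0.146 tags, far below the assumed added 1. The order of the zones by fold therefore rests on that 1, and it was not tested without it. Median pileup was 11.5 and 14 tags within 10 kb on the low and high side, at median inputs of 5.72 and 6.80 times the floor. From 30 to 50 kb it was 4 and 5 tags, at 1.29 and 1.77 times. Pileup thus rose toward the core by a smaller factor than input did. Of the 153 members, 68 had a fold of 5 or more (44.4%, 36.8 to 52.4%), against 6.8% of the list, and 143 had a fold of 3 or more (93.5%), against 64.7%. At the floor lay 61.6% of the list, and there 2 tags gave a fold of 2.62 and 3 tags a fold of 3.49. These shares thus largely follow tag counts, and members and list are not on equal terms in them.

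At stages 12-13 the list filed as Cdc45 had its lowest folds just to the high side of the reference. The 6 summits of the central stretch had folds of 2.04 to 3.18, and the zone medians were 3.10 from the reference to 10 kb on the high side, 5.09 on the low side from a single summit, 5.76 and 5.66 from 10 to 30 kb on the low and high side, and 4.96 and 5.60 from 30 to 50 kb. The highest fold, 7.19, stood at 8748647, 28.6 kb from the reference, where pileup was 58 tags and input 3.85 times the floor. That pileup was well below the ceiling of 92. Over the whole window, 32 of 143 members had a fold of 5 or more (22.4%, 16.3 to 29.9%), against 10.3% of the list. For a fold of 3 or more it was 133 (93.0%), near the list's 91.1%. A peak of several kb counts once here, as does a peak of 46 bp.

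The list filed as SUUR had lower folds at both stages. Stage 10 members had folds of 1.82 to 5.31 with a median of 2.62, below the list's 3.70, and 19 of 55 had a fold of 3 or more (34.5%, 23.4 to 47.7%), against 92.9% of the list. For a fold of 5 or more it was 1 of 55, against 10.5%. At stages 12-13 they had 1.87 to 4.43 with a median of 2.67, below the list's 3.42, and 35 of 120 had a fold of 3 or more (29.2%, 21.8 to 37.8%), against 72.9%, and none had a fold of 5 or more, against 5.14%. Input at the members had a median of 3.12 times the floor at stage 10 and 3.30 at stages 12-13, and its part in these shares was not tested. The p-value limit of the peak calls lets a lower fold pass where background is higher. At stage 10, members of 10 tags near the floor had folds of 3.03 to 3.06. A member of 34 tags at 6.49 times the floor had 2.02. At the floor lay 77.2% of the stage 10 list and 76.4% of the later list. Most peaks of both lists also lay off the main chromosome arms. Members and lists are thus not on equal terms in these shares. At stage 10 the zone medians were 2.34 and 2.16 within 10 kb on the low and high side and 2.87 and 2.56 from 10 to 30 kb, so the core had the lower folds at this stage. At stages 12-13 the summits of the central stretch had folds of 2.07 to 2.55, and the zone from 10 to 30 kb had medians of 3.16 on the low side and 3.72 on the high side. The highest fold, 4.43, stood at 8750188, 30.2 kb from the reference and close to the summit with the highest fold filed as Cdc45. Both lists of this stage used the same input.

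IgG folds in the window were 1.98 to 4.08 at stage 10 and 2.11 to 3.00 at stages 12-13. Their medians, 2.46 and 2.42, were below those of both ChIP lists of the same stage, and close to the 2.62 and 2.67 of the lists filed as SUUR. A fold of 3 or more was held by 2 of 14 and by none of 8 members, against 98.1% and 97.9% of their lists. None of the 14 and 8 IgG members had a fold of 5 or more, against 35% and 34.3% of their lists. These members lay at raised input, with medians of 6.68 and 10.1 times the floor, where a lower fold passes the p-value limit. The highest IgG fold at both stages lay 27 kb to the high side, at 8747439 and 8746965.

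**Figure D5:**
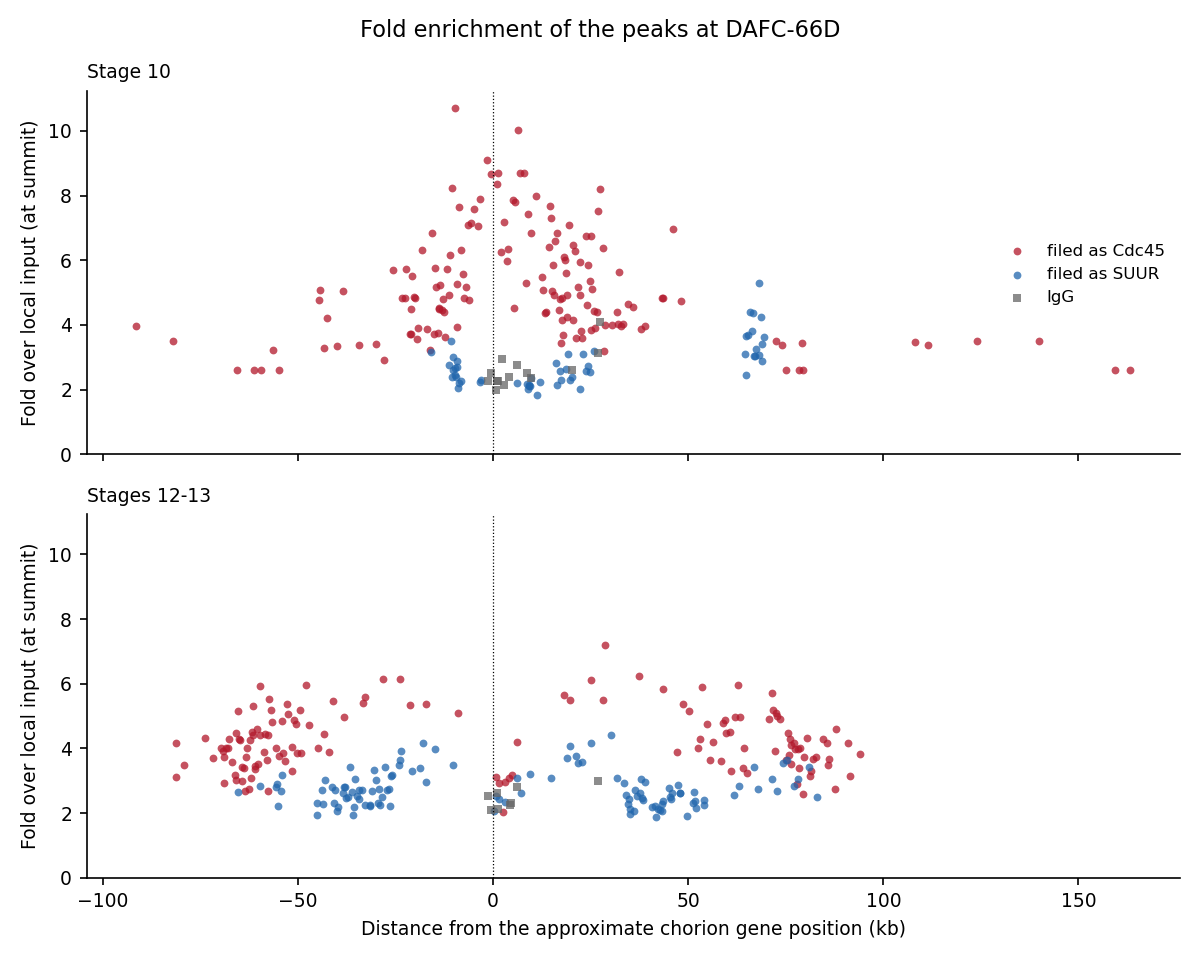
Authors' fold enrichment over local input at each summit (y axis) against distance from the approximate chorion gene position (x axis, kb), at stage 10 (top) and stages 12-13 (bottom). Points are member peaks, coloured by library. At stage 10 folds filed as Cdc45 reach 10.7 near the reference, while at stages 12-13 they are 2.04 to 3.18 just beside it and reach 7.19 on the high side.

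One group of members stood outside the core. In the stage 10 list filed as SUUR, 16 peaks lay between 8784588 and 8789455, and no other peak of that list lay more than 30 kb from the reference. They held 2.46 of the list's 5.18 kb, and included its longest member, 394 bp from 8787746 to 8788139, which also had its highest fold, 5.31. Their pileups of 10 to 18 tags were lower than over the core, and their input of 1 to 1.88 times the floor was near the genome level. The stage 10 lists filed as Cdc45 and of IgG had no peak there. The −log10 p of the 16 peaks ran from 3.39 to 10.3. With the lists of the stage cut to equal length, the list filed as SUUR kept 2 peaks in the whole window. Its high side then held 0.394 kb, the length of the longest member of the cluster.

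The same place was a gap in the later block. The 5 kb bin that starts at 8.785 Mb was 3.96% covered at stages 12-13 filed as Cdc45, with 72.9% and 90.4% in the bins on its low and high side. The list filed as SUUR had 4 short peaks of 14 to 18 tags from 8781628 to 8787897 at stages 12-13, with folds of 2.55 to 3.44. Stage 10 clustering there was thus seen in 1 of the 3 lists of the stage. These lists had 8265341 tags filed as SUUR, 353742 filed as Cdc45 and 3891175 for IgG. The part of depth in the absence was not tested. The cluster's median fold, 3.52, was below the 3.70 of its whole list.

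Inside the core the later blocks were nearly without breaks. From 8.690 to 8.755 Mb the list filed as Cdc45 covered 97.8% at stages 12-13, with 16 breaks of a median of 62.5 bp and a longest of 213 bp at 8722288 to 8722500, inside the central stretch. The list filed as SUUR covered 94.2%, with 40 breaks of a median of 69 bp and a longest of 424 bp at 8747979 to 8748402. At stage 10 the list filed as Cdc45 covered 50.2% of the same interval with 120 breaks, and the list filed as SUUR 4.19%. The median break at stage 10 was 126 bp filed as Cdc45, against a median peak width of 98 bp, and 399 bp filed as SUUR, against 66 bp.

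DAFC-7F, the amplicon on X that holds the chorion genes Cp36 and Cp38, was set beside DAFC-66D in its window of 8.3 to 8.6 Mb. The list filed as Cdc45 had 49 peaks there at stage 10 and 187 at stages 12-13, more than at DAFC-66D at the later stage, but its longest were 231 and 3033 bp and its highest pileups 10 and 48 tags. Filed as SUUR there were 27 and 72 peaks, with a longest of 168 and 2127 bp and pileups of up to 25 and 61 tags. The highest input worked back at a summit was 5.92 times the floor at stage 10 and 7.39 at stages 12-13, against 8.44 and 11.4 at DAFC-66D. The longest peak and the highest pileup were thus lower at DAFC-7F in each of these 4 lists. Median widths were not all smaller: filed as SUUR they were 70 and 158.5 bp, against 66 and 145 bp at DAFC-66D. No test of the difference was possible with 1 library each.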

How the data were processed

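ChIP-seq peak lists of 6 egg chamber libraries were used. The submitters' processing notes name BWA and the build dm3. Per the file headers, MACS 2.0.10.20130419 called peaks per library against the input of the stage, with a p-value limit of 1e-03, a genome size of 1.2e+08, 44 bp tags and 1 tag kept per position, and scaled the larger data set (the input, of 19223113 and 19414683 tags) to the smaller. The pileup signal (stacked tags) at the summit, the −log10 p and the fold ratio over local input are the authors' values as deposited. They were set side by side across lists as descriptions only. The headers say that q-values were not calculated, so that column was not used. Fragment lengths were 36 to 58 bp, per the file headers.

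Covered length is the union of peaks. Peaks shared 1 bp or more to overlap. Shares carry Wilson 95% intervals, which cover counting error only. They treat members as independent, but members are neighbouring peaks of 1 library, so the intervals describe no spread between libraries. Input multiples were worked back from pileup and fold with an assumed added count of 1. Groups were assigned by title, and the lists are named by the antibody of the file, which differs from the title in 4 libraries. Overlaps between lists of 1 stage are not given, since they share an input. Calculations used Python 3.11.15, numpy 2.4.6 and pandas 2.3.3, and were tested on simulated data. Named peaks of a list are the 3 of highest pileup, the first, the last and the widest. The peaks of highest fold, the central stretch and the cluster near 8.79 Mb were chosen after values were seen. The members and the lists of measures were chosen with earlier results of these data known. Peak sequences were not used here.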

Additional observations from a re-analysis of the deposited data

Results flagged for a closer look

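Between stage 10 and stages 12-13 a pair of measures moved in opposite directions in the lists of the different antibodies. The number of peaks in the window changed by -10 (153 to 143) filed as Cdc45 and by 65 (55 to 120) filed as SUUR. With a −log10 p of 5 or more it went from 111 to 120 filed as Cdc45 and from 26 to 84 filed as SUUR, so both rose. The median fold of the members changed by -0.68 (4.84 to 4.16) filed as Cdc45 and by 0.046 (2.62 to 2.67) filed as SUUR. The difference was not tested, since each group held 1 library. Depth went from 353742 to 4824942 tags filed as Cdc45 and from 8265341 to 6942374 filed as SUUR, so stage and depth cannot be told apart. Beside the fall in number filed as Cdc45, the covered length went from 35.3 to 130.5 kb, as peaks were longer.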

How the results depend on the processing

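Of 174 values recomputed under other settings, 145 stayed within 1.5 times the main value (or, for median widths, within the 95% interval of the median, and for the highest pileup at the same value) and 29 did not. No value moved with peaks under a pileup of 5 left out, a window wider by 100 kb on each side, bins of 10 kb, bins covered at least 75%, the reference at the highest summit or at the stage 10 midpoint, or an overlap of 50% of the shorter peak. With a −log10 p of 5 or more, the stage 10 list filed as SUUR had 26 peaks and 2.95 kb (0.714 kb on the low side, 2.24 kb on the high side), IgG had 6 peaks and 0.801 kb at stage 10 and 4 peaks and 0.324 kb at stages 12-13, the median width was 153 bp at stage 10 filed as Cdc45 and 197 bp at stages 12-13 filed as SUUR, and the length shared by the stages filed as SUUR was 1.35 kb. With lists of equal length the stage 10 list filed as SUUR kept 2 peaks and 0.448 kb (0.054 and 0.394 kb by side), stage 10 IgG 9 peaks, and the list filed as SUUR at stages 12-13 had 72 peaks. With peaks over IgG left out, the latter had 18.99 kb on the low side and 40 kb of bins over 50%, since its longest peak overlaps IgG. With the reference moved 10 kb to the high side the stage 10 list filed as Cdc45 had 22.9 and 12.3 kb by side. The block filed as SUUR at stage 10 was 2 kb in bins of 2 kb, 5 kb at a limit of 25%, and 19.6 or 41.8 kb when peaks were merged over gaps of up to 5 or 10 kb. Merging gave 92.8 kb at either gap for stage 10 filed as Cdc45, and 99.5 or 148.5 kb for stages 12-13 filed as SUUR. The other causes were not tested. No paired analysis was possible because each group held 1 library. The overlap of the antibodies within a stage was not run, since they share an input.

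Depth ran from 353742 to 8265341 tags and no list was thinned to a common depth. The ceiling on stacked tags limits pileup at the core at stages 12-13.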
